A study of Arabidopsis thaliana with 17 samples.

Results

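The step from 1 h to 3 h after cutting was examined in hypocotyls of Arabidopsis thaliana, the seedling stems between root and seed leaves. It was followed over every gene that reached 1 RPKM or more in 2 or more of the 6 libraries of these times. RPKM is a read count scaled for the length of the gene and for the mapped reads of the library. Of 28642 listed genes, 18437 met this rule (64.4%), and they are called the members. AT2G29310, just inside the rule, averaged 0.188 RPKM at 3 h and 0.948 RPKM at 1 h, and FER2, just outside it, averaged 0.663 RPKM at 3 h and 0.795 RPKM at 1 h. By its labels, each group held etiolated hypocotyls of seedlings raised in darkness on MS-0 plates, which were severed with a sharp cut and kept dark on such plates for 3 h (n = 3 libraries) or for 1 h (n = 3). Libraries of 0, 6, 12 and 24 h (n = 3, 3, 3 and 2) were used for the spread between libraries and to follow the members afterwards. The labels give no ecotype, mutant allele, seedling age or number of hypocotyls per library. Nor do they say whether libraries of a time came from separate plants, so p-values here reflect the scatter among libraries alone, and that scatter may be technical. Uncut hypocotyls kept for the same hours were not analysed here, and time since the cut and time on the plate cannot be told apart.

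A cut in a plant stem is known to release calcium and reactive oxygen waves, damage peptides and the hormone jasmonate. Within minutes these switch on genes for transcription factors, many of them followed by their own repressors. Later waves of transcripts are known to serve defence compounds, wall strengthening, nutrient uptake and, where callus forms from the cut surface, renewed cell division. Jasmonate works through JAZ proteins, which hold back the factor MYC2 until the hormone has them destroyed, and MYC2 in turn activates the JAZ genes. WRKY proteins bind the W box in promoters, MYC2 and related factors the G box.

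Between 1 h and 3 h a wide set of transcripts differed. Of the members, 11692 were called (63.4%), at a Benjamini-Hochberg adjusted p of at most 0.05 in limma's moderated test. Of them 7385 were higher at 3 h than at 1 h (40.1%) and 4307 were lower (23.4%), as shares of all members. The other 6745 were not called. With at least a 2-fold difference besides, 1704 were higher (9.24%) and 1471 lower (7.98%), and 80 were at least 8-fold higher and 103 at least 8-fold lower. Differences are of mean log2(RPKM + 1), 3 h minus 1 h, which understates the change of genes near 0. The quartiles of the members' differences were -0.31 and 0.54, and the median of all 19656 genes tested was 0.14. The excess of higher genes moved with the scaling, since centring each library on its median gave 5422 higher and 5731 lower, with 1245 and 1893 at least 2-fold. In 7700 members (41.8%) every 3 h library lay above every 1 h library, and in 4609 (25.0%) every one lay below. Of all members, 384 reached the rule only through 3 h libraries and 420 only through 1 h libraries. In such genes the rule itself favours a difference, though it may be small. The median coefficient of variation over members was 9.46% at 3 h and 11.5% at 1 h.

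**Figure D1:**
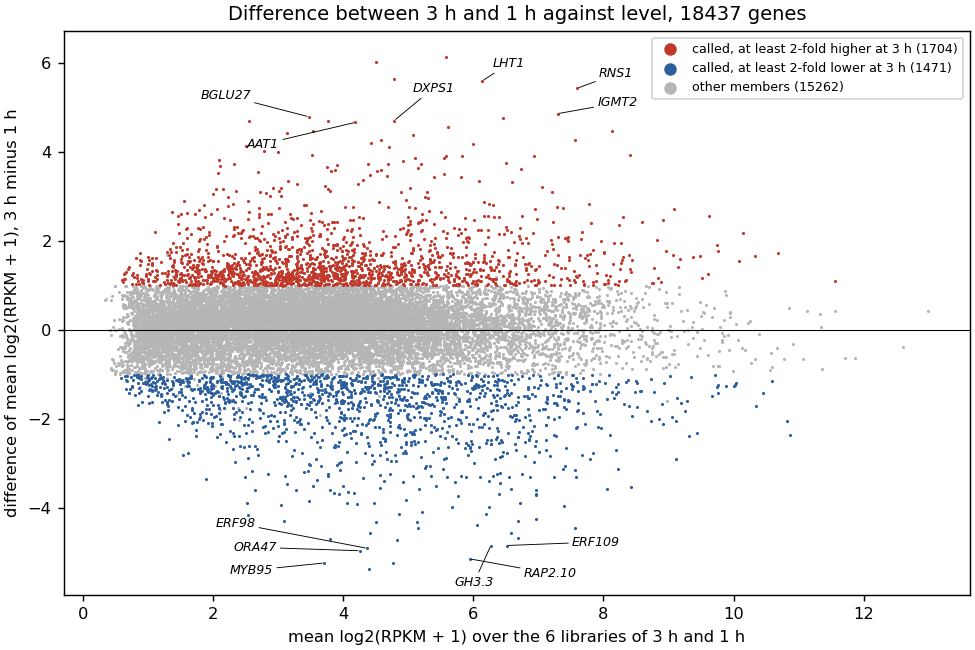
Difference of mean log2(RPKM + 1), 3 h minus 1 h, against the mean log2(RPKM + 1) over the 6 libraries, 1 point per member. Red points are the 1704 called genes at least 2-fold higher at 3 h, blue points the 1471 at least 2-fold lower, grey points the other 15262 members, and labels mark the 6 largest changes in each direction among genes with a symbol and a mean of at least 3 on this scale.

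The recovered depth of the 6 libraries was 7717255 to 7858900 mapped reads, so that 3 reads on a gene of 1 kb correspond to 0.382 to 0.389 RPKM, for counting error only. Reads are not independent molecules. Across members, Pearson's r was 0.987 to 0.990 between 3 h libraries, 0.980 to 0.983 between 1 h libraries and 0.878 to 0.896 between the times, as a description over genes. Markers of tissues in and around the stem were present at both times. The summed level of the 8 xylem markers was 309 to 431 RPKM at 3 h and 311 to 377 RPKM at 1 h, with 1 marker higher and 2 lower. Of these calls, those of CESA4 (higher) and VND6 (lower) were lost without 1 h replicate 1. The sum of the 6 phloem markers was 282 to 343 RPKM at 3 h and 343 to 440 RPKM at 1 h, with 0 higher and 3 lower. SEOA and SEOB gave most of this sum, and the calls of SEOA and PP2-A1 were lost without 3 h replicate 2. SUC2 was not called, with 43.9 to 51.3 RPKM at 3 h against 33.1 to 45.3 RPKM at 1 h. APL was not called either, with 15.5 to 18.7 RPKM at 3 h against 11.5 to 15.9 RPKM at 1 h. The sum of the 4 epidermis markers was 51.7 to 53.7 RPKM at 3 h and 54.7 to 62.3 RPKM at 1 h, with 1 higher and 2 lower. FDH, which was not called, gave most of this sum, with 39.8 to 43.2 RPKM at 3 h and 39.6 to 44.8 RPKM at 1 h. ATML1 rose, while PDF2 and PDF1 fell, and the call of PDF1 was lost without 1 h replicate 1. Cambium (1 higher, 0 lower of 4), endodermis (1 and 0 of 2), seed storage (1 and 0 of 2) and shoot apex markers (0 and 0 of 2) were few. The endodermis sum was 16.3 to 28.3 RPKM at 3 h and 11.4 to 54.4 RPKM at 1 h. Within it SCR rose, with 12.8 to 13.8 RPKM at 3 h against 4.85 to 5.68 RPKM at 1 h. CASP1 was not called and ranged from 5.89 to 49.6 RPKM at 1 h alone. Of the shoot apex markers, WUS and CLV3 were at 0 in all 6 libraries. STM had at most 0.56 RPKM at 3 h and 1.52 RPKM at 1 h. BP was well above these, with 32.4 to 36 RPKM at 3 h and 31.1 to 41.3 RPKM at 1 h. Of 5 root hair markers 0 were members, their sum being at most 0.45 RPKM at 3 h and 1.5 RPKM at 1 h. The part of tissue makeup in the results was not tested. In bulk RNA, fewer cells of a type and less RNA per cell cannot be told apart.

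Among the genes that rose most, LHT1, the lysine and histidine transporter that imports amino acids into cells, had 537, 481 and 455 RPKM at 3 h, against 9.39, 14.2 and 5.51 RPKM at 1 h. Its log2 difference was 5.60 (SE 0.27, adjusted p 5.03e-10), the largest among genes with a symbol. RNS1, a secreted ribonuclease that recovers phosphate from RNA, had 1196, 1375 and 1263 RPKM at 3 h, against 45.1, 30 and 16.8 RPKM at 1 h. In both genes every 3 h library lay far above every 1 h library. IGMT2, a methyltransferase of indole glucosinolates, had 810.1, 858 and 874 RPKM at 3 h, against 22.8, 41.8 and 23.1 RPKM at 1 h. PROPEP3, the precursor of a danger peptide that cells release on damage, had 136, 183 and 145 RPKM at 3 h, against 9.07, 9.24 and 2.92 RPKM at 1 h, and 1 h replicate 3 was the lowest of its time. CWINV1, the wall invertase that splits sucrose outside the cell, had 822, 839 and 823 RPKM at 3 h, against 49.5, 49.8 and 29.5 RPKM at 1 h. The 3 h libraries of CWINV1 were nearly equal, and all were far above those of 1 h. The other 10 of the 15 largest rises were BGLU27, DXPS1, AAT1, TI1, GSTF6, IGMT3, PER4, PRN, Prx37 and LAC1, with differences between 3.86 and 4.80. Among them, AAT1, a transporter of basic amino acids, had 97.5, 79.6 and 97.0 RPKM at 3 h, against 2.64, 2.79 and 2.40 RPKM at 1 h. TI1, an inhibitor of trypsin-like proteases, had 252, 204 and 259 RPKM at 3 h, against 14, 6.27 and 8.15 RPKM at 1 h, and stood at 819 and 1119 RPKM on average at 6 h and 12 h. In all 15 genes the libraries of the 2 times did not overlap.

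Genes without a symbol of their own reached further still, and are named here after their values were seen. AT1G10585 and AT4G20970, both annotated as basic helix-loop-helix proteins, differed by 6.15 and 6.02. AT1G10585 had 412, 341 and 455 RPKM at 3 h, against 6.98, 3.2 and 4.41 RPKM at 1 h, and AT4G20970 had 194, 159 and 192 RPKM at 3 h, against 3.84, 0.224 and 2.70 RPKM at 1 h. AT4G22470, annotated as a lipid transfer protein, had 204, 197 and 177 RPKM at 3 h, against 3.44, 2.92 and 2.35 RPKM at 1 h and differed by 5.64.

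Among the genes that fell most, MYB95, a MYB factor, had 1.13, 1.68 and 0.655 RPKM at 3 h, against 85, 69.8 and 83.7 RPKM at 1 h, a log2 difference of -5.25 (SE 0.21, adjusted p 2.68e-11). RAP2.10, of the AP2/ERF family, had 7.5, 12.4 and 8.59 RPKM at 3 h, against 371, 341 and 385 RPKM at 1 h. ORA47, an AP2/ERF factor that activates jasmonate synthesis genes, had 2.23, 2.63 and 2.36 RPKM at 3 h, against 96.7, 98.9 and 123 RPKM at 1 h. In all 3 genes the highest 3 h library lay far below the lowest 1 h library. GH3.3, which couples auxin to amino acids, had 7.92, 16.3 and 17.9 RPKM at 3 h, against 339.9, 427 and 489 RPKM at 1 h. FAMT, annotated as a farnesoic acid methyltransferase, had 16.1, 25.1 and 17.77 RPKM at 3 h, against 627, 535 and 419 RPKM at 1 h. CML39, a calmodulin-like calcium sensor, had 15.5, 24.1 and 17.3 RPKM at 3 h, against 557, 408 and 450.0 RPKM at 1 h. These 3 fell by between 4.58 and 4.86 on the log2 scale, and the libraries of the 2 times did not overlap. The remaining 9 of the 15 largest falls were ERF98, ERF109, ERF13, NUDT8, JAM1, WRKY18, HSFA2, JAZ7 and JAZ2. AT2G38790, an uncharacterized gene that was looked at after its values were seen, fell by more than any of them, with 1.43, 2.72 and 2.84 RPKM at 3 h, against 111, 133 and 167 RPKM at 1 h.

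**Figure D2:**
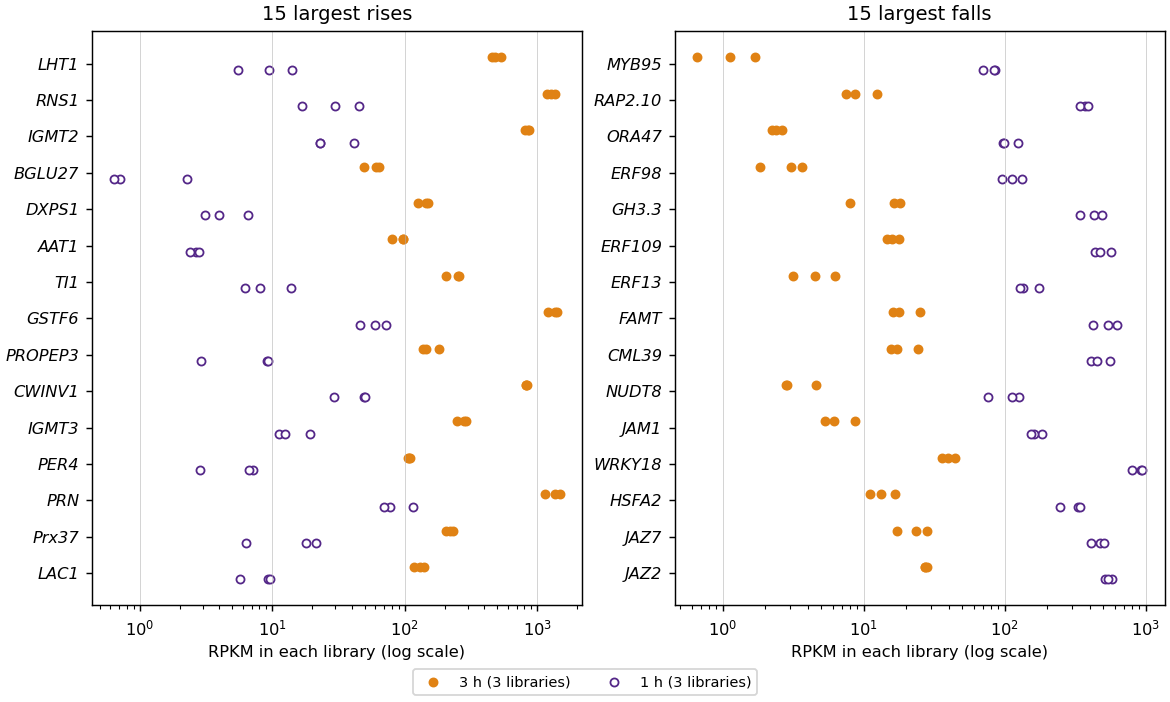
RPKM in each library (log scale) of the 15 genes with the largest rise and the 15 with the largest fall, filled points for the 3 libraries of 3 h and open points for the 3 of 1 h. In no gene do the points of the 2 times overlap, LHT1 being lowest at 455 RPKM at 3 h and highest at 14.2 RPKM at 1 h, and MYB95 highest at 1.68 RPKM at 3 h and lowest at 69.8 RPKM at 1 h.

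The upstream sequence of the largest changes was read from the TAIR10.1 assembly of RefSeq, 250 bases before each annotated gene start, on both strands, and 18301 members had such a window. The W box was searched as TTGACC and as TTGACT, and a window could hold both forms, as that of PROPEP3 did. Upstream of the 15 largest rises, 8 windows held a form of it (53.3%), against 2 of 15 for the largest falls (13.3%). Over whole sets the share was 36.9% of genes at least 2-fold higher, 28.5% of genes at least 2-fold lower and 28.5% of all members, and it was 27.8% of 33054 annotated genes. Part of the window of PROPEP3, chr5:25939330-25939519 on the plus strand, is shown because this stretch held 4 matches, and stretches of the windows of IGMT2, chr1:7396904-7397003 on the minus strand, and AAT1, chr4:11269885-11269984 on the plus strand, because each holds 1 in the stretch printed. All are written 5′ to 3′ on the strand of the gene, with matches on either strand in capitals.
PROPEP3: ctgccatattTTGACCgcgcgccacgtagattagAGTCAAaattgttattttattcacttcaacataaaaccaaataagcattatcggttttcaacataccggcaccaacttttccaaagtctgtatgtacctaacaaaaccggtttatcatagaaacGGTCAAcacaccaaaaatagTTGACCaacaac
IGMT2: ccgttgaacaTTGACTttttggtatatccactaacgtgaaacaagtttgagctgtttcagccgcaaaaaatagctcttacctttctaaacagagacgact
AAT1: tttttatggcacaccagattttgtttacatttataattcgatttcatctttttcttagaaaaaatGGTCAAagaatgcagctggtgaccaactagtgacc

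The G box, CACGTG, which reads the same on both strands, stood upstream of 6 of the 15 largest falls (40%) and 2 of the 15 largest rises (13.3%). It was found in 12.1% of genes at least 2-fold lower, 5.72% of genes at least 2-fold higher, 7.49% of all members and 5.86% of annotated genes. By list, it stood upstream of 8 of 20 clock genes (40%) and 9 of 31 ERF and DREB genes (29%). Genes of jasmonate synthesis, repressors and MYC factors held it in 6 of 36 windows (16.7%). Shares were 15.4% for small heat shock proteins and chaperones, 10.5% for heat shock factors and 12.5% for ribosome biogenesis genes. The element CGCGTT, which CAMTA factors bind, was found in 5.28% of genes at least 2-fold lower and 2.36% of genes at least 2-fold higher, against 2.96% of members and 2.53% of annotated genes. Stretches of the windows of JAZ7, chr2:14572930-14573029 on the plus strand, JAZ2, chr1:28150447-28150546 on the minus strand, and ERF109, chr4:16451732-16451831 on the plus strand, are shown as 3 of the 6 falls with a G box, which is in capitals.
JAZ7: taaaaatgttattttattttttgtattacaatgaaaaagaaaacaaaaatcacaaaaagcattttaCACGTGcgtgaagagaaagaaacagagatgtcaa
JAZ2: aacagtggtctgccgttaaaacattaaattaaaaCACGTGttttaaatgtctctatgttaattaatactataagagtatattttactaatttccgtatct
ERF109: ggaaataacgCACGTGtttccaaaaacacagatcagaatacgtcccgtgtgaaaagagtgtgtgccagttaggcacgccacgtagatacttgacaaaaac

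The evening element AAAATATCT, a site of clock factors, was found upstream of 5 of 20 clock genes (25%), 3.5% of genes at least 2-fold lower and 2.45% of members. The heat shock element core GAANNTTC was found upstream of 3 of 13 genes listed as small heat shock proteins and chaperones (23.1%). Shares were alike for ERF and DREB factors (22.6%) and heat shock factors (21.1%). They were lower for clock (15%), ribosome biogenesis (8.33%) and jasmonate genes (2.78%). This core stood upstream of 12% of genes at least 2-fold lower and 9.31% of members. The ERF site GCCGCC stood at 2.01% of genes at least 2-fold higher, 2.06% of genes at least 2-fold lower and 2.04% of members. Annotated genes held these 3 motifs in 2.22%, 9.67% and 1.88% of windows. These shares are descriptions of letters in a window and carry no test.

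**Figure D3:**
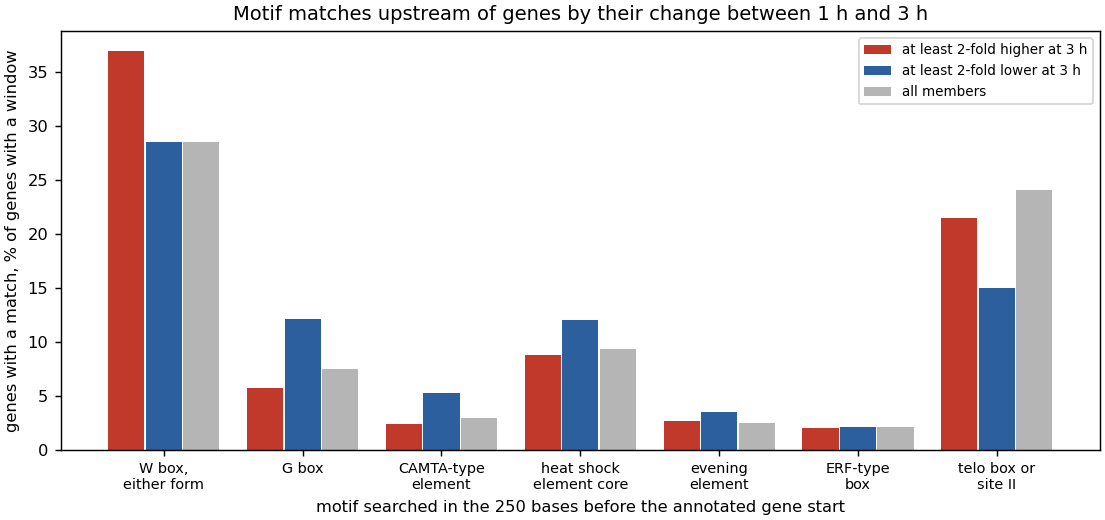
Share of genes with a match in the 250 bases before the annotated gene start (%), for genes at least 2-fold higher at 3 h, genes at least 2-fold lower at 3 h and all members, by motif. W box matches stand at 36.9% of higher, 28.5% of lower and 28.5% of all genes, and G box matches at 5.72%, 12.1% and 7.49%.

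The early transcription factor families did not move as one. Of 31 ERF and DREB members, 5 rose and 23 fell, with a median difference of -1.32 against 0.14 over all genes tested. ERF109, a factor linked to regeneration and reactive oxygen, had 17.75, 15.8 and 14.6 RPKM at 3 h, against 434, 476 and 570.0 RPKM at 1 h. DREB2A, a factor of dehydration and heat stress, had 25.4, 28.8 and 20.4 RPKM at 3 h, against 283, 290.4 and 268 RPKM at 1 h. RAP2.6, by contrast, rose, with 712, 719.8 and 859.7 RPKM at 3 h, against 504, 406 and 396 RPKM at 1 h. ERF113 and ERF14 also rose, by 1.47 and 1.32, and ERF115, known for stem cell renewal after damage, was not called at -0.18 with 39.6, 38.1 and 41.2 RPKM at 3 h, against 48.9, 47 and 39.3 RPKM at 1 h. The C2H2 zinc finger factors had 1 rise and 5 falls among 8 members (median -1.17), with ZAT12 at 65.9, 76.4 and 56.9 RPKM at 3 h, against 359, 329 and 343 RPKM at 1 h. The exception was ZAT11, with 44.9, 59.8 and 52.4 RPKM at 3 h, against 9.85, 12.1 and 9.07 RPKM at 1 h. The WRKY family split, with 20 higher and 14 lower of 45 members and a median of 0.21. Its shares were not far above the 40.1% higher and 23.4% lower of all members. WRKY18 and WRKY40, close relatives that act together in immunity, fell by 4.45 and 2.06, and WRKY40 had 257, 288 and 270.3 RPKM at 3 h, against 1011, 1214 and 1185 RPKM at 1 h. WRKY53, a regulator of senescence, rose by 3.57, with 74.4, 85.2 and 74.9 RPKM at 3 h, against 7.96, 5.68 and 3.92 RPKM at 1 h. WRKY33, the activator of camalexin synthesis, was not called, with 291, 369.9 and 344 RPKM at 3 h, against 281, 377 and 322 RPKM at 1 h. WRKY28, WRKY29 and WRKY45 rose by 1.58, 1.53 and 1.71, while WRKY46 fell, with 7.02, 11 and 9.39 RPKM at 3 h, against 58.5, 40.6 and 31 RPKM at 1 h.

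NAC factors had 8 higher and 8 lower of 22 members (median -0.13). The share higher was near the 40.1% of all members, and the share lower was above their 23.4%. NAC055, a target of MYC2, had 11.5, 14.3 and 9.91 RPKM at 3 h, against 133, 155 and 145 RPKM at 1 h, and NAC047 had 94.3, 88.7 and 82.7 RPKM at 3 h, against 14.8, 9.51 and 13.3 RPKM at 1 h. These 2 genes moved in opposite directions without overlap. Among 15 stress MYB factors 4 rose and 6 fell (median -0.24). MYB74 fell by 3.11, and MYB63, an activator of lignin genes, rose by 2.29, with 64.4, 60.6 and 72.9 RPKM at 3 h, against 18.3, 11.9 and 9.29 RPKM at 1 h.

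Most of the listed genes of calcium and MAP kinase signalling fell. Of 16 genes for calcium sensors and pumps, 10 fell and 6 rose (median -0.92). CML37, CML38 and CML39, calmodulin-like proteins, fell by 3.22, 2.92 and 4.58, and CML37 had 25.7, 27.8 and 26.8 RPKM at 3 h, against 267, 246 and 261 RPKM at 1 h. CML41, another such protein, rose, with 32.2, 31.4 and 20.6 RPKM at 3 h, against 3.94, 3.74 and 1.88 RPKM at 1 h. In the MAP kinase cascade 14 of 20 members fell and 4 rose (median -1.02). MAPKKK21, an upstream kinase of the cascade, fell by 3.68, and MPK3, a terminal kinase of immunity, had 65, 87.3 and 69.4 RPKM at 3 h, against 245, 267 and 244 RPKM at 1 h. PP2C5, a phosphatase of MAP kinases, rose by 2.27, though only to 5.57 RPKM at 3 h against 0.362 RPKM at 1 h. Danger peptides and surface receptors were split, with 11 higher and 10 lower of 22 members and a median of 0.05 that turned to -0.12 with median centring. PROPEP2 rose with PROPEP3, with 50.9, 50.8 and 47.6 RPKM at 3 h, against 4.22, 4.61 and 1.55 RPKM at 1 h, whereas PROPEP4 had 8.05, 6.59 and 8.25 RPKM at 3 h, against 100.6, 79.2 and 63.5 RPKM at 1 h. PEPR1, the receptor of these peptides, fell, with 47.3, 53.6 and 48.5 RPKM at 3 h, against 149, 189 and 172 RPKM at 1 h, while FLS2, the receptor of bacterial flagellin, rose, with 52.1, 57 and 52.1 RPKM at 3 h, against 20.3, 18 and 17.9 RPKM at 1 h. Of 9 salicylate immunity members 6 fell and 1 rose (median -0.40), with NPR3, a salicylate receptor, at 55.2, 66.1 and 56.4 RPKM at 3 h, against 220.2, 225 and 227 RPKM at 1 h.

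Most jasmonate genes fell. Of 16 synthesis genes 12 fell and 2 rose, with a median of -1.92. LOX3, a lipoxygenase at the start of synthesis, had 16.2, 19.9 and 17.7 RPKM at 3 h, against 323, 258 and 324 RPKM at 1 h, a difference of -4.00 (SE 0.14, adjusted p 5.81e-12). OPR3, the reductase that follows the plastid steps, had 73, 76.5 and 78.7 RPKM at 3 h, against 924, 889 and 952 RPKM at 1 h. AOS, the allene oxide synthase, had 195, 237 and 196 RPKM at 3 h, against 880.2, 809 and 915 RPKM at 1 h, and thus stayed well above its 0 h mean of 32.7 RPKM. PED1, a thiolase of the last beta-oxidation steps, rose, with 317, 279 and 317 RPKM at 3 h, against 144, 163 and 154 RPKM at 1 h. Of the 20 repressor and MYC members, 15 fell and 2 rose (median -1.72). Of 12 JAZ members, 11 fell, and JAZ11 was not called at 0.14. JAZ2 had 27.2, 27.3 and 28.2 RPKM at 3 h, against 517, 573 and 535 RPKM at 1 h, and JAZ7 had 23.3, 27.8 and 17.1 RPKM at 3 h, against 472, 405 and 503 RPKM at 1 h. JAZ10, a late repressor in jasmonate signalling, had 74, 77 and 76.4 RPKM at 3 h, against 579, 499 and 529.9 RPKM at 1 h. JAZ1 had 305, 360.5 and 307 RPKM at 3 h, against 1095, 1152 and 1180.5 RPKM at 1 h, and so stayed above its 0 h mean of 33.2 RPKM. MYC2 had 45.3, 53.1 and 43.1 RPKM at 3 h, against 455, 471 and 493 RPKM at 1 h, and JAM1, a bHLH repressor that opposes it, fell by 4.46. MYC3 and MYC4, its close relatives, were not called, at -0.04 and 0.14, and COI1, the jasmonate receptor, rose by 0.54. Of 7 genes that break jasmonate down, 5 fell and 2 rose (median -2.20), with ILL6, which splits the active conjugate, at 25.8, 33.2 and 27.7 RPKM at 3 h, against 297, 274 and 316 RPKM at 1 h. Of 5 genes of jasmonate output, 2 rose, a share near the 40.1% of all members, and 2 fell (median 0.37). TI1 rose, CLH1 fell most, at -3.85, and TAT3, a tyrosine aminotransferase, fell by 1.93. The genes AOC1 to AOC4 are close copies whose reads may be shared, and how such reads were assigned is not given in the sources used here. The same limit holds for IGMT1 to IGMT4, GSTF6 and GSTF7, CBF1 to CBF3 and the small heat shock proteins.

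Other hormone groups moved differently. Ethylene genes had 10 higher and 3 lower of 18 members (median 0.97). ACS2, a rate-limiting ACC synthase, had 70.5, 78.9 and 75.1 RPKM at 3 h, against 5.15, 5.49 and 3.58 RPKM at 1 h, while ACS6, a sister enzyme under MAP kinase control, had 36.6, 51.1 and 37.6 RPKM at 3 h, against 83.8, 91.9 and 99.2 RPKM at 1 h. The receptors ETR2, ERS1 and ERS2, which ethylene itself induces, rose by 1.92, 1.68 and 1.48, and CTR1, the kinase they act through, rose by 1.28. In cytokinin synthesis, response and breakdown, 15 of 24 members rose and 3 fell (median 0.77). CYP735A2, which forms trans-zeatin, had 203, 146 and 244 RPKM at 3 h, against 30.6, 21.5 and 24.6 RPKM at 1 h. All 8 type-A response regulators among these members rose, by 0.57 to 1.54, with ARR4 at 100.2, 91.8 and 109.99 RPKM at 3 h, against 36.3, 33.2 and 32.6 RPKM at 1 h. At 0 h ARR4 had averaged 74.9 RPKM, above each of its 1 h libraries and below each of its 3 h libraries. LOG4 and LOG1, activating enzymes of cytokinin, fell by 2.82 and 2.61, while LOG5 rose by 2.17.

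Auxin response genes fell in 20 of 29 members and rose in 4 (median -0.90). IAA2, an auxin-induced repressor of the response, had 81.8, 124 and 97.3 RPKM at 3 h, against 1045, 1162 and 1326 RPKM at 1 h. GH3.2 fell by 3.61 beside GH3.3. In contrast IAA28 rose, with 149.6, 137 and 149.8 RPKM at 3 h, against 53.7, 42 and 34.3 RPKM at 1 h, and GH3.6 rose by 1.59. Of 14 members for auxin synthesis and transport 6 rose and 4 fell (median 0.23). Both shares were near the 40.1% higher and 23.4% lower of all members. YUC5, an enzyme of auxin synthesis, fell by 2.50 and PIN3, an auxin exporter, by 1.94, while TAA1, the aminotransferase before YUC5, rose by 1.55. Of 21 genes of abscisic acid and dehydration 10 fell and 3 rose (median -0.26). NCED3, the rate-limiting enzyme of abscisic acid synthesis, had 11.6, 15.4 and 12 RPKM at 3 h, against 64.5, 70 and 72.6 RPKM at 1 h. Gibberellin (2 higher, 0 lower of 6) and brassinosteroid metabolism (5 higher, 3 lower of 10) were small lists. With so few genes their shares are not set apart from the 40.1% higher and 23.4% lower of all members. In these lists GA2OX2, which inactivates gibberellin, rose by 1.13 and DWF4, a rate-limiting hydroxylase of brassinosteroid synthesis, by 1.51.

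Protein folding genes are given by compartment. Of 13 small heat shock proteins and chaperones, mostly of the cytosol, 10 fell and 1 rose, with a median of -2.28. HSP101, which unfolds aggregates, had 31.8, 34.9 and 34.6 RPKM at 3 h, against 528, 484 and 361 RPKM at 1 h, and HSP70-4 had 184, 211 and 208 RPKM at 3 h, against 1619.9, 1613 and 1329 RPKM at 1 h. HSP17.6A had 55.6, 53.4 and 50.1 RPKM at 3 h, against 348, 287 and 179 RPKM at 1 h, and its 6 h mean was 228 RPKM. In HSP101 and HSP17.6A the 3 h libraries were close together, and 1 h replicate 3 was the lowest of the 1 h libraries in both. HSP18.2 rose, with 30.9, 25.8 and 34.4 RPKM at 3 h, against 20.5, 14.6 and 16.2 RPKM at 1 h. Of 19 heat shock factor genes 11 fell and 2 rose (median -0.42), HSFA2, the chief inducible factor, having 11.1, 16.7 and 13.2 RPKM at 3 h, against 331, 339 and 247 RPKM at 1 h. For the endoplasmic reticulum, 15 of 20 folding genes rose and 4 fell (median 0.77). PDIL1-2, a disulfide isomerase, had 96.7, 83.2 and 105.01 RPKM at 3 h, against 27, 27.5 and 22.3 RPKM at 1 h. BIP1, the main lumenal chaperone, had 273, 263 and 305 RPKM at 3 h, against 163, 159 and 127 RPKM at 1 h. BZIP60, the factor that drives such genes under folding stress, fell, with 92.3, 98.4 and 90.5 RPKM at 3 h, against 155, 167 and 158 RPKM at 1 h. BIP3, a stress-specific chaperone, was not called, with 1.03, 0.722 and 2.05 RPKM at 3 h, against 3.12, 2.42 and 1.83 RPKM at 1 h, and averaged 199 RPKM at 6 h. Of 31 proteasome list members 19 rose and 0 fell, by at most 0.62, with a median of 0.22 close to that of all genes. With median centring 7 of the 31 rose and 2 fell. Of 10 autophagy members 2 rose and 3 fell (median -0.06), the share lower being near the 23.4% of all members.

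Most of the listed genes of indole defence compounds rose. Of 18 indole glucosinolate members 15 rose and 2 fell (median 1.51). MYB51, the factor that governs this pathway, had 389, 405 and 424 RPKM at 3 h, against 45.8, 78.8 and 56.4 RPKM at 1 h. CYP79B2, which turns tryptophan into the shared precursor, had 484, 409 and 536 RPKM at 3 h, against 189, 139.8 and 102.1 RPKM at 1 h, and CYP83B1, the next enzyme toward glucosinolates, rose by 2.04. PEN2, the myrosinase that splits the products at sites of attack, rose by 1.68, while PEN3, a transporter that acts with it, had 523, 614 and 556 RPKM at 3 h, against 1136, 1464 and 1412 RPKM at 1 h. In the tryptophan and camalexin list 9 of 13 rose and 2 fell (median 1.36). PAD3, the last enzyme of camalexin synthesis, had 137, 138 and 139 RPKM at 3 h, against 12.4, 18.7 and 7.0 RPKM at 1 h. TSA1 (AT3G54640), the alpha subunit of tryptophan synthase, had 713, 588 and 761 RPKM at 3 h, against 159, 129 and 113.2 RPKM at 1 h. In aliphatic glucosinolate genes, 3 rose and 4 fell of 12 (median -0.07), and SOT17, a sulfotransferase of the last step, had 119, 96.9 and 128 RPKM at 3 h, against 16.1, 10.8 and 10.6 RPKM at 1 h.

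Phenylpropanoid and lignin genes rose in 20 of 26 members and fell in 2 (median 1.65). PAL1, the entry enzyme, had 1261, 1183 and 1381 RPKM at 3 h, against 426, 425 and 348 RPKM at 1 h. C4H, which follows it, had 1727, 1546 and 1772 RPKM at 3 h, against 492, 452 and 389 RPKM at 1 h, and 4CL1, the third enzyme, had 936, 783 and 993 RPKM at 3 h, against 184, 165 and 149 RPKM at 1 h. The 3 steps rose by 1.67, 1.92 and 2.44, and no library overlapped between the times. CAD5, which makes lignin alcohols, had 1804, 1752 and 2032 RPKM at 3 h, against 664, 598 and 628 RPKM at 1 h. The members that fell were ATR1 and ATR2, the reductases that feed electrons to P450 enzymes, by 0.70 and 0.71. DIR6 and PAL4 rose most in the list, by 2.75 and 2.53. Of 9 suberin genes 3 rose, 0 fell and 6 were not called (median -0.19), the largest rise being KCS2 at 0.95. The share higher was not above the 40.1% of all members. The rises of ASFT and FACT, which attach aromatic acids to lipids, were not called with median centring. Nor were they called with only the 6 libraries of these times fitted, without 1 h replicate 3 or without 3 h replicate 2. CYP86A1, a hydroxylase of suberin acids, was not called and averaged 1.12 RPKM at 3 h and 3.36 RPKM at 1 h.

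Of 30 glutathione transferases 14 rose and 7 fell (median 0.32), shares near those of all members (40.1% higher and 23.4% lower). GSTF6, which serves camalexin synthesis, had 1417, 1200.2 and 1370.0 RPKM at 3 h, against 59.4, 72.3 and 46 RPKM at 1 h. GSTU5 and GSTU6, of the tau class, fell by 2.36 and 2.38, and GSTU5 had 638, 942 and 941 RPKM at 3 h, against 4277, 4127 and 4374 RPKM at 1 h. Of 15 genes of detoxification and mitochondrial stress 6 rose, a share near that of all members, and 1 fell (median 0.50), and AOX1A, the alternative oxidase, was not called, with 87.4, 89.9 and 77.4 RPKM at 3 h, against 92.9, 95.4 and 64.6 RPKM at 1 h. In sulfate assimilation and glutathione synthesis, 13 of 17 rose and 2 fell (median 0.94). SULTR1;2, the main sulfate importer of roots, had 58.1, 78.6 and 53.8 RPKM at 3 h, against 4.13, 11.8 and 2.50 RPKM at 1 h, with 1 h replicate 2 the highest of the 1 h libraries. APR2, a reductase that controls the flux, had 81.8, 93.0 and 82.6 RPKM at 3 h, against 27.7, 17.9 and 15.5 RPKM at 1 h, while APS3, an ATP sulfurylase, fell, with 11.1, 13.1 and 12 RPKM at 3 h, against 130.3, 137 and 110.1 RPKM at 1 h.

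**Figure D4:**
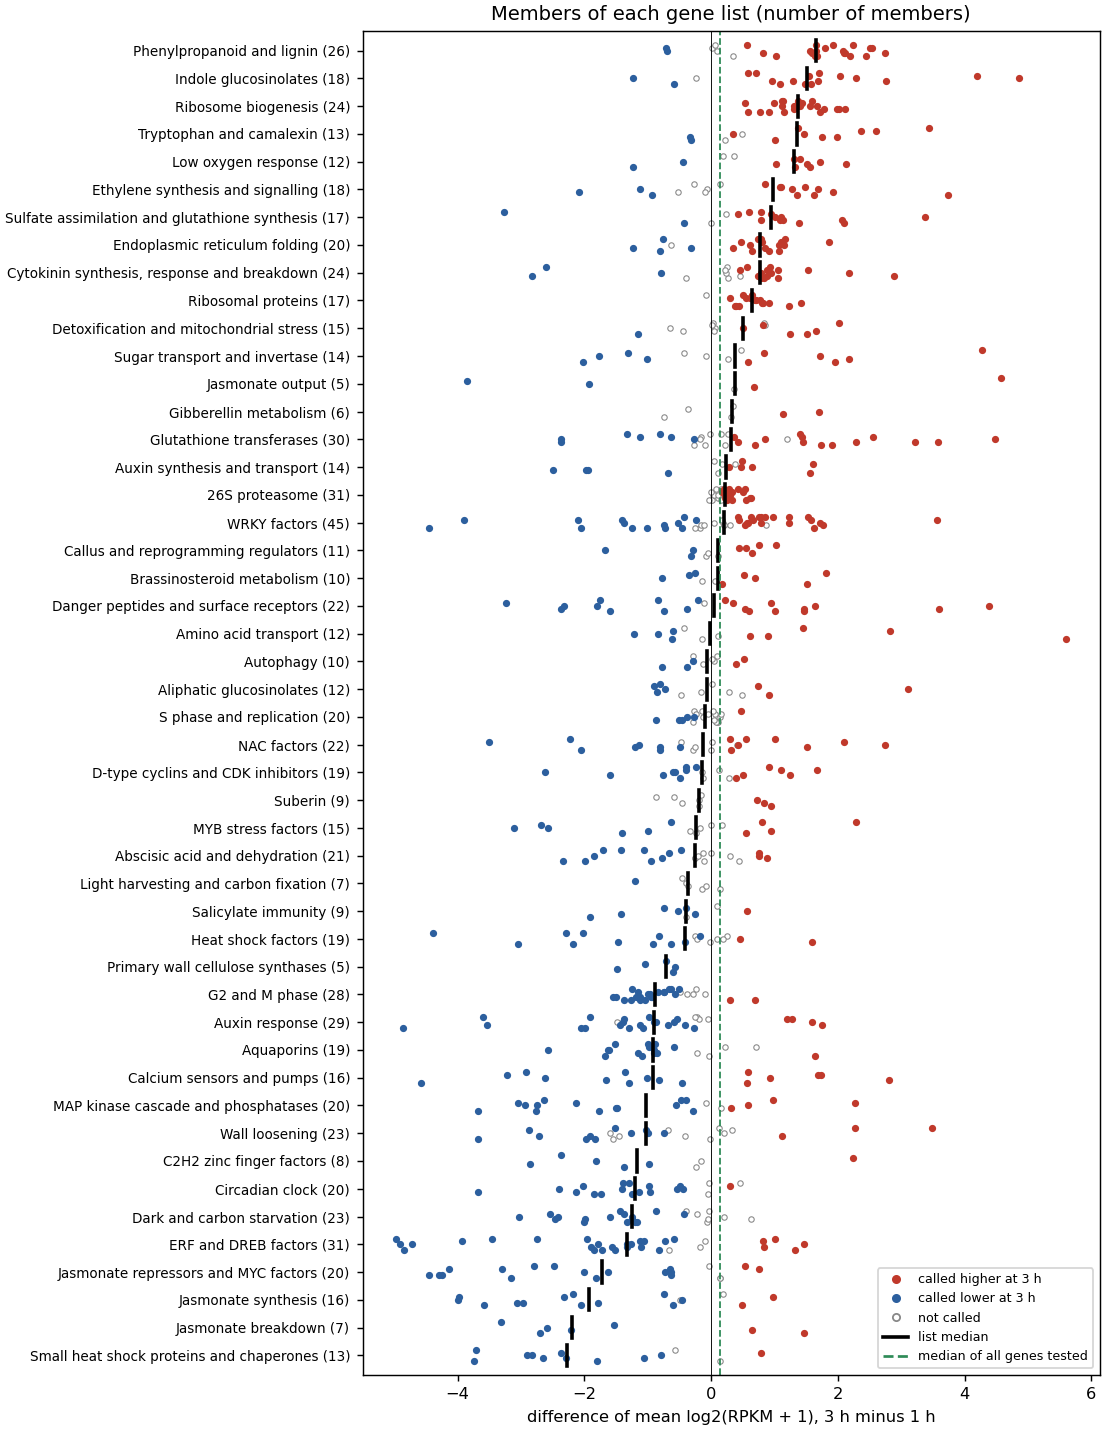
Difference of mean log2(RPKM + 1), 3 h minus 1 h, of each member of 48 gene lists with at least 5 members, sorted by median, with the tissue marker lists left out. Red points were called higher at 3 h, blue lower, open points were not called, black bars are list medians and the dashed line is the median of all genes tested, 0.14. Phenylpropanoid genes have the highest median of these lists at 1.65 and small heat shock proteins and chaperones the lowest at -2.28.

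The genes of ribosome biogenesis that could be followed all rose. Of 34 listed, 24 matched by identifier and name, and the others were left out. The 24 ribosome biogenesis members were all higher at 3 h, with a median of 1.37 against 0.14 over all genes tested, or 1.2 with median centring. OLI2, a methyltransferase of ribosomal RNA maturation, had 57, 56.3 and 57.3 RPKM at 3 h, against 12.9, 12 and 12.4 RPKM at 1 h, a difference of 2.11 (SE 0.06, adjusted p 1.28e-12). RID2, a related enzyme needed for dedifferentiation in culture, had 43, 38.8 and 41.1 RPKM at 3 h, against 11, 8.62 and 9.26 RPKM at 1 h. NUC1, the major nucleolin of the nucleolus, had 303, 289 and 318 RPKM at 3 h, against 109.9, 92.8 and 103.2 RPKM at 1 h, and FIB2, a fibrillarin that modifies ribosomal RNA, had 70.8, 58.4 and 65.1 RPKM at 3 h, against 17.84, 13.8 and 14 RPKM at 1 h. In all 4 genes the libraries of a time lay close together and the times did not overlap. Of 17 ribosomal protein genes 16 rose and 0 fell (median 0.65), RPL10C not being called at -0.08. The site II element of these promoters was searched as TGGGCC and TGGGCT, and the telo box as AAACCCTAA. At least 1 of the 3 stood upstream of 14 of 24 ribosome biogenesis genes (58.3%), against 24% of all members and 19.9% of annotated genes. The share was 53.8% in the list of small heat shock proteins and chaperones, most of which fell, and 21.4% of genes at least 2-fold higher. Parts of the windows of OLI2, chr5:22649518-22649617 on the minus strand, and RID2, chr5:23204277-23204376 on the plus strand, are shown with a site II match in capitals.
OLI2: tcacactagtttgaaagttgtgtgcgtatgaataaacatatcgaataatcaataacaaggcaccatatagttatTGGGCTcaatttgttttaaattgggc
RID2: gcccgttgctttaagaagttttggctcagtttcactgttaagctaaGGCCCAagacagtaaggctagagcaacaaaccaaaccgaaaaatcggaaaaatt

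Genes of mitosis mostly fell. Of 28 members for G2 and M phase, 21 fell and 2 rose (median -0.89). KNOLLE, a syntaxin of the cell plate, had 6.99, 6.41 and 4.28 RPKM at 3 h, against 19.5, 19.7 and 17.2 RPKM at 1 h. CDKB2;1, a mitotic kinase, had 10.1, 7.80 and 5.91 RPKM at 3 h, against 16.6, 18 and 14 RPKM at 1 h, and CYCB1;1, a mitotic cyclin, was not called, with 0.638, 1.58 and 1.03 RPKM at 3 h, against 2.66, 1.28 and 1.85 RPKM at 1 h. At 0 h KNOLLE had averaged 41.2 RPKM, so its 3 h libraries lay below both earlier times. Replication genes moved little, with 1 rise, 5 falls and 14 not called of 20 members (median -0.09), and PCNA1, the sliding clamp, fell with 4.37, 2.61 and 2.98 RPKM at 3 h, against 7.08, 7.38 and 6.05 RPKM at 1 h. Of 19 D-type cyclins and inhibitors 6 rose and 9 fell (median -0.14). KRP2, an inhibitor of cyclin-dependent kinases, had 27.2, 27.4 and 26.7 RPKM at 3 h, against 9.13, 7.21 and 7.39 RPKM at 1 h, and SMR5, an inhibitor induced by stress, had 2.85, 0.566 and 1.70 RPKM at 3 h, against 17.9, 14.3 and 12.1 RPKM at 1 h. Of 11 callus and reprogramming regulators 5 rose and 3 fell, with a median of 0.11. Those shares were near the 40.1% higher and 23.4% lower of all members. With median centring 3 rose and 4 fell, and the median was -0.06. WIND1, an AP2/ERF factor that promotes callus at wounds, was not called, with 274, 268 and 257 RPKM at 3 h, against 311, 268 and 271 RPKM at 1 h. LBD16, a factor of lateral root founder cells, had 33.9, 43.2 and 40.5 RPKM at 3 h, against 21.9, 20.101 and 26.2 RPKM at 1 h, and PLT3, a regulator of regeneration, had 8.78, 7.49 and 9.77 RPKM at 3 h, against 4.49, 5.69 and 5.26 RPKM at 1 h. LBD29 fell by 1.68.

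Among genes of cell expansion, falls outnumbered rises. Of 23 wall loosening members 11 fell, 3 rose and 9 were not called (median -1.03). TCH4, a touch-induced xyloglucan enzyme, had 32.3, 42.2 and 28.3 RPKM at 3 h, against 462, 436 and 440.0 RPKM at 1 h, and XTH24, of the same family, had 114.3, 129.8 and 97.2 RPKM at 3 h, against 638, 829 and 785 RPKM at 1 h. The 3 rises were expansins, with EXPA10 at 80.7, 66.9 and 64.7 RPKM at 3 h, against 7.13, 5.23 and 4.06 RPKM at 1 h, and EXPA1 and EXPA4 up by 2.27 and 1.12. All 5 primary wall cellulose synthases fell, by 0.57 to 1.48, with CESA6 at 63.5, 75.1 and 57.9 RPKM at 3 h, against 117, 102.8 and 103 RPKM at 1 h. Of 19 aquaporins 14 fell and 1 rose (median -0.91), PIP2;1, a water channel of the plasma membrane, having 177, 174 and 181 RPKM at 3 h, against 527, 581 and 600.2 RPKM at 1 h. The rise was TIP2;1, a channel of the vacuole, with 1223, 1188 and 1106 RPKM at 3 h, against 427, 317 and 385 RPKM at 1 h.

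Genes induced by darkness and carbon shortage mostly fell. Of 23 members 16 fell and 0 rose (median -1.25). BXL1, a wall xylosidase, had 29.9, 36.9 and 35.4 RPKM at 3 h, against 132, 250.1 and 251 RPKM at 1 h, and DIN10, a raffinose enzyme induced by darkness, had 13.6, 16.2 and 11.7 RPKM at 3 h, against 20.9, 40.5 and 41.3 RPKM at 1 h. In both, 1 h replicate 1 was the lowest of its time. SEN1 (AT4G35770), an early marker of senescence, fell by 2.01. Of 14 sugar transporters and invertases 6 rose and 4 fell (median 0.38), shares near those of all members (40.1% higher and 23.4% lower). Beside CWINV1, the hexose importer STP13 rose, with 404, 405 and 398 RPKM at 3 h, against 141, 122.03 and 104.2 RPKM at 1 h, and the sucrose exporter SWEET11 fell, with 45.9, 57 and 48.9 RPKM at 3 h, against 165, 212 and 259 RPKM at 1 h. Of 12 amino acid transporters 5 rose, a share near that of all members, and 4 fell (median -0.02). AAP3, an amino acid permease, rose, with 223, 168 and 218 RPKM at 3 h, against 33, 22.4 and 28.1 RPKM at 1 h, and AAP2 fell by 1.22.

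The circadian clock list had 1 rise and 16 falls among 20 members (median -1.20). BOA, a factor of the evening loop, had 2.74, 3.33 and 3.87 RPKM at 3 h, against 48.9, 49.2 and 65.6 RPKM at 1 h. CCA1 and RVE1, morning factors, had 5.85, 6.51 and 7.23 RPKM at 3 h, against 20.12, 30.1 and 22.6 RPKM at 1 h for CCA1 and 2.99, 2.08 and 2.50 RPKM at 3 h, against 18.9, 16.1 and 17.3 RPKM at 1 h for RVE1. Evening genes were among the falls too, TOC1 by 0.44 and GI by 0.54, and ELF3 was the 1 rise at 0.30. The labels do not give the hour of day of cutting or harvest, and its part in these values was not tested. Of 12 low oxygen members 8 rose and 2 fell (median 1.31). ADH1, alcohol dehydrogenase, had 52.5, 50 and 61.3 RPKM at 3 h, against 18.24, 15.1 and 20.5 RPKM at 1 h, and LBD41, a marker of low oxygen, had 17.7, 23.3 and 17.803 RPKM at 3 h, against 2.72, 3.90 and 4.67 RPKM at 1 h. LBD41 averaged 15.5, 3.76, 19.6, 17.77, 12.7 and 8.10 RPKM at 0, 1, 3, 6, 12 and 24 h, so that its 1 h mean lay below those of 0 h and 3 h. Light harvesting genes had 1 fall among 7 members (median -0.36).

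Some genes crossed from near nothing to clear expression, or back. Of 18437 members, 6 had less than 1 RPKM in all 1 h libraries and at least 10 RPKM in all 3 h libraries. These genes, and those of the reverse case below, passed the rule through the libraries of 1 time alone. They were picked by their values at both times, so they had to differ and are given as a description. AT1G78922, an uncharacterized gene, had 22.9, 27.4 and 39.1 RPKM at 3 h, against 0.15, 0.149 and 0.15 RPKM at 1 h. GEA6, a late embryogenesis abundant protein, had 14.3, 12.9 and 16.7 RPKM at 3 h, against 0.212, 0 and 0.423 RPKM at 1 h, and AT1G14550, a peroxidase next to PER4, had 19.1, 12.8 and 13.5 RPKM at 3 h, against 0.268, 0.133 and 0 RPKM at 1 h. The others highest at 3 h were AT1G11925, of the Stig1 family, and AT1G76470, a Rossmann-fold enzyme. The reverse held for 3 members, AT3G09950, WRKY38 and AAE12. WRKY38 had 0.756, 0.501 and 0.251 RPKM at 3 h, against 25.6, 15.9 and 23.1 RPKM at 1 h, and AAE12, an acyl activating enzyme, had 0.798, 0.991 and 0.596 RPKM at 3 h, against 21.9, 15.9 and 13.1 RPKM at 1 h.

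Of the 5 highest members at 3 h, 4 are given here, and each of these differed by less than 2-fold. PYK10, the main beta-glucosidase of bodies of the endoplasmic reticulum, had 9756, 9625 and 9007 RPKM at 3 h, against 6878, 6717 and 7633 RPKM at 1 h, a rise of 0.42 that was no longer called with median centring. AT4G23670, a polyketide cyclase-like protein, fell by 0.39, with 5119, 5121 and 6106 RPKM at 3 h, against 6368, 7152 and 7884 RPKM at 1 h, a call that was lost without 1 h replicate 3, 3 h replicate 1 or 3 h replicate 2, at adjusted p 0.0836, 0.0677 and 0.064. PBP1, which binds PYK10, rose with 3519, 3795 and 3239 RPKM at 3 h, against 2678, 2539.6 and 2651 RPKM at 1 h, a call also lost with median centring, and GRP3S, a glycine-rich wall protein, fell, with 3313, 2736 and 3020.1 RPKM at 3 h, against 5666, 3989.6 and 4519 RPKM at 1 h.

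Libraries that did not enter the means compared showed where the members stood afterwards. Of the 1704 genes at least 2-fold higher at 3 h than at 1 h, 1391 were higher at 6 h than at 0 h (81.6%) and 82 lower (4.81%), while of all members 31.4% were higher and 37.2% lower. At 12 h 78.3% of them and at 24 h 74.1% of them were higher than at 0 h, against 35.0% and 36.5% of all members. They made up 24% of all members higher at 6 h than at 0 h. Their median level was 8.13 to 9.02 RPKM in 0 h libraries, 21.0 to 21.8 RPKM at 6 h and 16.7 to 17.5 RPKM at 24 h. LHT1 averaged 4.45, 9.71, 491, 486, 98 and 77.8 RPKM at 0, 1, 3, 6, 12 and 24 h, and PROPEP3 0.952, 7.08, 155, 47.3, 5.93 and 4.20 RPKM at 0, 1, 3, 6, 12 and 24 h. LHT1 thus stayed high at 6 h, and PROPEP3 was near its 1 h mean by 12 h.

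Of the 1471 genes at least 2-fold lower at 3 h than at 1 h, 418 were higher at 6 h than at 0 h (28.4%) and 763 lower (51.9%). They made up 7.22% of all members higher at 6 h than at 0 h and 11.1% of those lower. At 12 h 22% of them were higher and 49.2% lower than at 0 h, against 35.0% and 28.4% of all members. At 24 h 18.6% of them were higher and 43.6% lower than at 0 h, against 36.5% and 23.8% of all members. Their median level was 10.9 to 13.1 RPKM in 0 h libraries, 7.58 to 7.87 RPKM at 6 h and 8.52 to 8.59 RPKM at 24 h. The falls differed in their level at 0 h. LOX3 averaged 0.425, 302, 17.9, 5.89, 1.13 and 0.792 RPKM at 0, 1, 3, 6, 12 and 24 h, so its 1 h level was the peak, whereas BXL1 averaged 1105, 211, 34.1, 25.6, 35.9 and 26.53 RPKM at 0, 1, 3, 6, 12 and 24 h, so that 3 h continued a decline from 0 h. HSFA2 averaged 2.0, 305, 13.7, 44.8, 5.28 and 2.03 RPKM at 0, 1, 3, 6, 12 and 24 h, with a lower second high at 6 h. Of the 15 largest falls, 6 were still called higher at 6 h than at 0 h and 3 called lower, while all 15 of the largest rises were called higher at 6 h and 14 at 24 h.

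**Figure D5:**
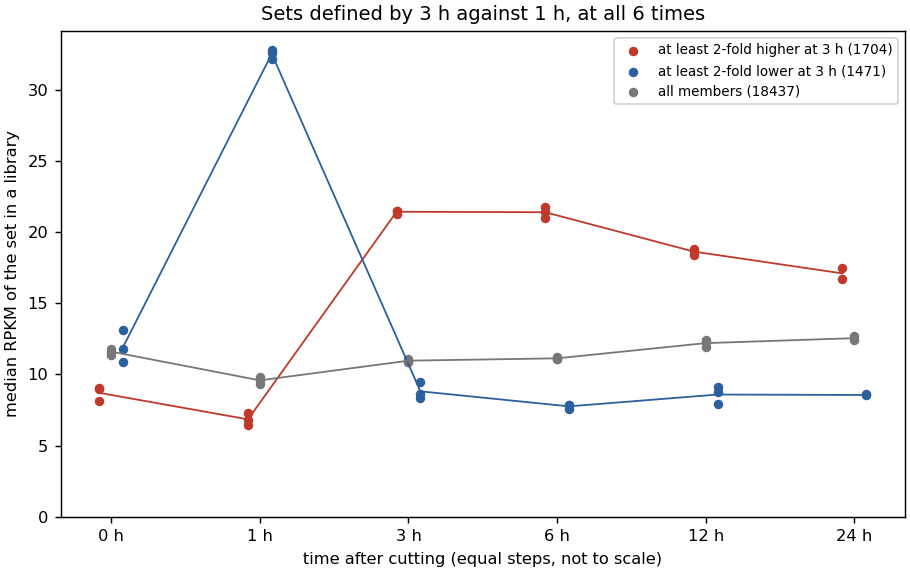
Median RPKM in each library at 0 to 24 h (points; lines join the means, and times are evenly spaced) of the 1704 genes at least 2-fold higher at 3 h than at 1 h, the 1471 at least 2-fold lower, and all 18437 members. The higher set stands at 21.3 to 21.5 RPKM at 3 h and 6.42 to 7.32 RPKM at 1 h, the lower set at 8.36 to 9.49 RPKM at 3 h and 32.2 to 32.8 RPKM at 1 h, and the rule on 3 h against 1 h fixes these 2 times.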

How the data were processed

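Total RNA of cut hypocotyls was made into libraries with a stranded mRNA kit, per the labels' protocols, with TAIR 10 as the genome build per the submitters' processing notes. The table deposited by the authors gave no unit in its header; its values behave as RPKM, reads scaled by gene length and library depth. The sources used here do not give the aligner, the counter or the use of strand, so reads of overlapping antisense genes may not be separable. Depth, recovered from the steps between low values, was 7717255 to 7858900 reads in the 6 libraries and up to 20740957 in the others.

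Deposited RPKM values were taken to log2(RPKM + 1) and fitted by limma 3.58.1 in R 4.3.3 (moderated test, trended and robust variance) over all 17 libraries with time as a factor. The 19656 genes with at least 1 RPKM in at least 2 libraries were tested, with Benjamini-Hochberg adjustment over all of them. The fit was tested on simulated data. Named genes were the 15 largest called rises and falls with a symbol, a mean log2(RPKM + 1) of at least 3 and no overlap of libraries, the 3 largest called changes per list, the 5 highest genes at 3 h (1 of them is not reported here), and the 5 highest genes switched on or off. Other list members are given with their values. The members and the 56 lists, with 971 distinct genes, were chosen with earlier results of these data known. Of 1025 list entries, 53 were dropped because identifier and symbol did not match in the reference annotation, and on that ground alone. Upstream windows came from NCBI RefSeq's annotation of TAIR10.1. Alternatives covered pseudocount, filter, scaling, the libraries fitted, the replicate block and leaving out each library.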

Additional observations from a re-analysis of the deposited data

How the results depend on the processing

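Under all 13 alternatives the counts of genes higher, lower and at least 2-fold higher or lower stayed within 1.5 times those reported. Median centring gave 5422 higher (48.6% of calls) and 5731 lower, and quantile normalization 6113 (55.1%) and 4990, against 7385 (63.2%) and 4307 as deposited. These scalings moved the median difference of all genes tested to -0.03 and 0.04, against 0.14. Leaving out 1 library at a time gave 6774 to 7147 higher and 3922 to 4116 lower, with 1657 to 1813 and 1442 to 1565 at least 2-fold. A pseudocount of 0.1 gave 2268 and 1833 at least 2-fold. The replicate block gave 7473 higher and 4464 lower. Deviations of same-numbered libraries correlated at 0.012, 0.228 and 0.141, 3 h replicate 1 correlated best with 1 h replicate 3, and the numbers were not taken to pair libraries. Of 178 named genes 0 reversed, and 17 lost their call under at least 1 alternative: ASFT, AT4G23670, ATG8G, BCAT4, CESA4, FACT, MOL1, NDR1, ORC6, PBP1, PDF1, PP2-A1, PYK10, SEOA, SESA1, VND6 and XTH19. List medians near 0 changed sign for danger peptides and receptors, brassinosteroid metabolism, callus regulators, xylem and cambium markers, suberin, aliphatic glucosinolates and amino acid transport. For suberin the median was 0.07 without 1 h replicate 2. At this depth, differences of genes near 1 RPKM rest on few reads.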
